A study of Mus musculus with 576 samples.

Results

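The genes described here are 10 members of the Notch pathway that were listed by symbol: the ligands Dll1, Dll4, Jag1 and Jag2, the receptors Notch1, Notch2 and Notch3, and the target genes Hes1, Hey1 and Heyl. Each symbol had 1 of the 36658 gene identifiers of the count tables, and all 10 were found in all 3 tables. The 10 genes were not chosen by a cut on their values, although earlier results of these data were known. The question was which cells of the early pancreas hold RNA of the senders and which hold RNA of the receivers, by cell state and by mouse line.

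The data were Smart-seq2 libraries (full-length RNA-seq of single cells in plates) of 576 GFP+ cells, sorted at E12.5 from the dorsal pancreatic buds of mouse embryos. Nkx2.5-Cre;mTmG and Nkx3.2-Cre;mTmG embryos carry a Cre under the control of Nkx2-5 or Nkx3-2, 2 transcription factor genes of the mesenchyme around the developing gut, with a reporter that turns to membrane GFP in cells that expressed Cre and in all their descendants. Prox1-GFP embryos carry a GFP transgene driven by Prox1 sequences, which mark pancreatic epithelium, and this sort also held mesenchymal cells. Each line filled 2 plates of 96 cells, called here 6A and 6B (Nkx2.5), 7A and 7B (Nkx3.2) and 8A and 8B (Prox1). Embryos of both sexes were used without being sexed, their number was not given, and no wild-type or Cre-negative cells were among the samples. No label tied a cell to an embryo, so each line counted as 1 sample, cells were not replicates and no p-value was computed; the spread between plates, which may be technical, is given instead.

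Notch signalling passes between touching cells. A ligand of the Delta-like (Dll) or Jagged (Jag) family on one cell binds a Notch receptor on its neighbour, the receptor is cleaved, and its intracellular part joins the DNA-binding protein RBPJ and switches on repressor genes of the Hes and Hey families. In the embryonic pancreas the pathway is known for lateral inhibition: a cell that starts to make NEUROG3, the factor that commits cells to the endocrine lineage, raises its Delta ligands, and Hes1 in its neighbours holds Neurog3 down. Jag1 is also known as a ligand of mesenchyme and of vessel walls, and Notch3 as the receptor of mural cells, which wrap around vessels.

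3 promoter stretches are shown because they carry letters that DNA-binding factors of this circuit are known to recognize. Binding at these sites was not measured. TGGGAA is the core that RBPJ recognizes, and CAGNTG is an E-box, the element bound by bHLH factors, the class that NEUROG3 belongs to. Hey2 and Hes5 are target genes outside the list of 10, shown because each held 2 RBPJ cores while their RNA differed. Among further pathway genes, the windows of Lfng and of 1 Rbpj start also held 2 cores and are not shown. The window of Dll1, the ligand highest in cells with much Neurog3, held 2 E-boxes, and the E-box was looked for after those levels had been seen. The window of the other Dll1 start and that of Dll4 held none, and that of Jag1, low in the same cells, held 1. Capitals mark the RBPJ cores in Hey2 and Hes5 and the E-boxes in Dll1, with TTCCCA the same core on the opposite strand. The windows of Hey2 and Hes5 also held 1 E-box each, which lies in the stretch shown and is left in lower case.
Hey2: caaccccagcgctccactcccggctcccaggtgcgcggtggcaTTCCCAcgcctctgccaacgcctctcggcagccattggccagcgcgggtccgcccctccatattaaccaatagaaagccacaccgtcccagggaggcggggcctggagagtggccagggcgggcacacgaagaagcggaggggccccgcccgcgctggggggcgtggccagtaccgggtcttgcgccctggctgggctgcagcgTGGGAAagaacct
Hes5: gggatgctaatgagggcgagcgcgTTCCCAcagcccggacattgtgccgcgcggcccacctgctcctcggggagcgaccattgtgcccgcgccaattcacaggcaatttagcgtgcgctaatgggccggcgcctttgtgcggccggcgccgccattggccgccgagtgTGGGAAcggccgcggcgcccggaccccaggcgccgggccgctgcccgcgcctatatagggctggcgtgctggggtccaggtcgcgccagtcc
Dll1: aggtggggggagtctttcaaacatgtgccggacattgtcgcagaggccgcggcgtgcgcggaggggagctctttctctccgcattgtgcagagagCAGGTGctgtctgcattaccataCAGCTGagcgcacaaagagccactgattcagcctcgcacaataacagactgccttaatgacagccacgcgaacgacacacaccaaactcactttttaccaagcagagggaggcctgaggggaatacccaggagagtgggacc
These sequences are from RefSeq on GRCm38.p6, each written along its gene's own strand: Hey2 at chr10:30842774-30843033 on the minus strand, Hes5 at chr4:154960673-154960932 on the plus strand and Dll1 at chr17:15376923-15377182 on the minus strand, upstream of 1 of 2 annotated Dll1 starts. In Hey2 the cores began at -207 and -3 from the start, in Hes5 at -226 and -82, and in Dll1 the E-boxes began at -155 and -132. On either strand, TGGGAA was found in 25.56% of 32851 RefSeq promoters of 300 bases and at least 2 copies in 3.79%, and CAGNTG in 51.42% with at least 2 copies in 18.23%. Of the 10 genes, 7 had an entry (8 promoters), and none of these windows held TGGGAA: Notch1, Notch2, Notch3, both Dll1 starts, Dll4, Jag1 and Jag2. Hes1, Hey1 and Heyl had no entry.

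After the study's filter on cells, 549 cells were kept and 27 were left out. Kept cells held 224813 to 1512736 counts, with a median of 901156, and cells of the Nkx2.5 line had fewer genes detected (median 5750) than those of the Nkx3.2 (7235) and Prox1 (6993) lines. Cells were clustered without the 10 genes and without the wider Notch list, and clusters were named from marker genes. Epithelial cells came from the Prox1 line alone: 19 endocrine-like cells (10 of 12 endocrine markers were highest in this cluster), 56 tip-like cells (5 of 5 markers of the future acinar tips) and 32 trunk-like cells (4 of 4 markers of the duct-like trunk), the last 2 together called other epithelial-like. Mesothelial-like cells, of the layer that covers the organ, numbered 28 (5 Nkx2.5, 23 Nkx3.2). The other 413 were mesenchymal (87 and 81 on the Nkx2.5 plates, 92 and 76 on the Nkx3.2 plates, 33 and 44 on the Prox1 plates), in 7 clusters: M-SpP-like (splenopancreatic), M-VSM-like (mural), M-III-like, proliferating and 3 clusters left without a name. 1 cell of the trunk-like cluster held the leukocyte genes Ptprc and Tyrobp and was set aside. Of 7 endothelial markers, Cdh5 and Cldn5 were at 0 in every class, and Emcn and Erg reached at most 0.26 and 0.499 CPM. Pecam1 was present in every class, from 31.4 CPM in tip-like to 52.9 CPM in M-III-like cells. Tek reached 21.6 CPM in M-III-like cells and Kdr 11.2 CPM in M-VSM-like cells.

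Levels are CPM, here the counts summed over the cells of a class and scaled to 1 common total for all classes, with an exact 95% Poisson interval, and shares are of cells with at least 1 count, with an exact 95% binomial interval. Both intervals cover counting error only, since PCR copies were counted. Genes are compared with each other only as CPM per kb of their longest coding transcript.

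**Figure D1:**
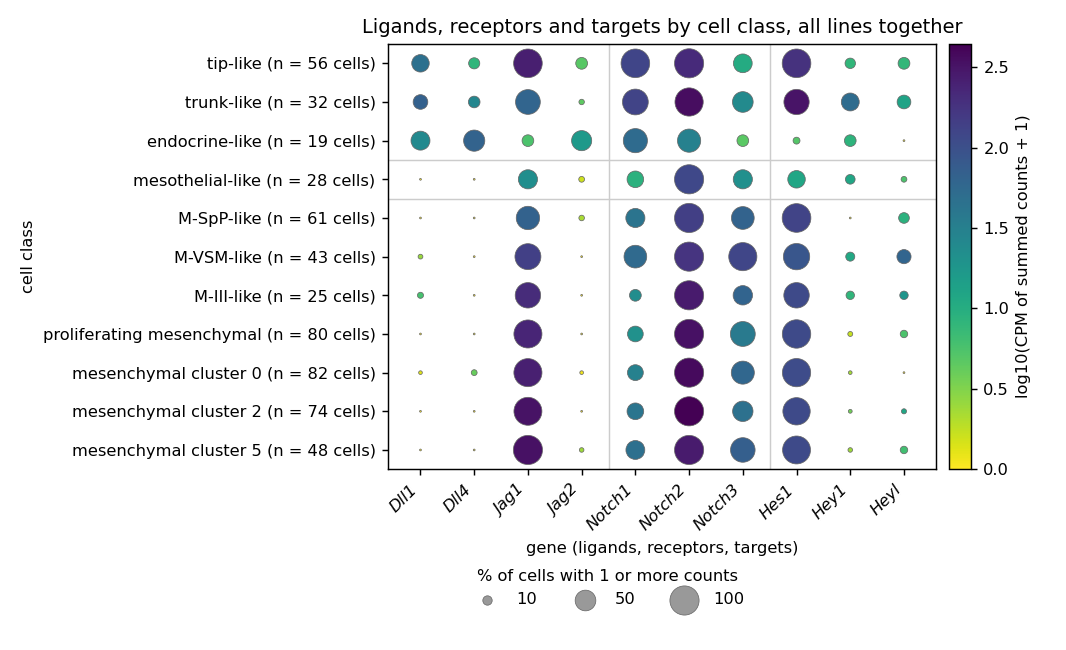
Level and share of cells of the 10 genes in the 11 cell classes, all lines together, with colour for log10 of CPM of summed counts plus 1 and dot area for the percentage of cells with 1 or more counts. Jag1 is dark in tip-like and mesenchymal cells and pale in endocrine-like cells (4.63 CPM), where Dll4 has its darkest dot (63.9 CPM), and Hes1 is pale in endocrine-like (4.06 CPM) and mesothelial-like cells (10.9 CPM).

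Jag1, the Jagged ligand (chr2:137081456-137116644, minus strand, GRCm38), was the ligand of the mesenchyme and of the epithelial tips. Summed over mesenchymal cells it stood at 260.7 and 377.9 CPM on the 2 Nkx2.5 plates, 119.97 and 86.9 CPM on the Nkx3.2 plates and 258.1 and 323.6 CPM on the Prox1 plates. The Nkx2.5 and Prox1 ranges overlapped, and both lay above the Nkx3.2 range. By cluster, both Cre lines were lowest in M-SpP-like cells, at 98.3 CPM (19 Nkx2.5 cells) and 39.1 CPM (41 Nkx3.2 cells). Their other mesenchymal clusters held 143.05 to 453.6 CPM (Nkx2.5) and 96.7 to 193.5 CPM (Nkx3.2). The 1 M-SpP-like cell of the Prox1 line held 511.0 CPM. Tip-like cells held 223.9 and 297.0 CPM on plates 8A and 8B, with counts in 54 of 56 cells, and trunk-like cells 60.2 and 64.3 CPM. In endocrine-like cells Jag1 was nearly absent, at 7.73 and 2.32 CPM and in 3 of 19 cells (15.8%, interval 3.38% to 39.6%). Mesothelial-like cells held 21.3 CPM over all plates, with 118.6 CPM in the 2 cells of plate 6B and 0 to 13.3 CPM elsewhere. Per cell, mesenchymal Jag1 ran from 0 to 1227 CPM with a median of 158.1 CPM.

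Dll1, a Delta ligand (chr17:15367354-15376872, minus strand), was held by epithelium. Other epithelial-like cells had 65.4 and 39.4 CPM on the 2 plates and endocrine-like cells 8.78 and 35.2 CPM, so that the classes did not overlap although plate 8B brought them close. Part of the other epithelial-like level sat in cells with much Neurog3, described below as Neurog3-high. Over both plates, trunk-like cells held 67.4 CPM with them and 7.07 CPM without, and tip-like cells 46.4 and 39.3 CPM. Counts were found in 28 of 88 other epithelial-like cells (31.8%, interval 22.3% to 42.6%) and in 8 of 19 endocrine-like cells (42.1%, interval 20.3% to 66.5%). Most cells of either class therefore had none, and 3 cells carried 39.1% of the Dll1 of the 88. In mesenchyme Dll1 was found in 3 of 413 cells, and in mesothelial-like cells in 0 of 28, which allows a share of up to 10.7% if a count of 0 is read as up to 3 cells (exact upper limit 12.3%).

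Dll4, the other Delta ligand of the list (chr2:119325784-119335962, plus strand), was highest in endocrine-like cells. It stood there at 91.8 and 43.2 CPM on plates 8A and 8B against 17.5 and 8.53 CPM in other epithelial-like cells, and the 2 classes did not overlap. Counts were present in 10 of 19 endocrine-like cells (52.6%, interval 28.9% to 75.6%) and in 13 of 88 others (14.8%, interval 8.11% to 23.9%). Thinning every cell to 100000 counts left these shares at 47.4% and 14.8%. Endocrine-like cells ranged from 0 to 436.5 CPM with a median of 17.3 CPM, and the top 3 cells carried 57.3% of the total. In mesenchyme 3 of 413 cells had Dll4.

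Jag2, the second Jagged ligand (chr12:112907819-112929776, minus strand), was low everywhere and highest in endocrine-like cells, at 5.06 and 23.4 CPM on the 2 plates. Other epithelial-like cells held 4.82 and 2.47 CPM, so on plate 8A the classes lay side by side. It was found in 9 of 19 endocrine-like cells (47.4%, interval 24.4% to 71.1%), 10 of 88 others and 4 of 413 mesenchymal cells. The endocrine share was 36.8% after thinning, against 6.82% in the others.

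Among the receptors, Notch2 (chr3:98013527-98150361, plus strand) was the one held by nearly every cell. It had counts in 413 of 413 mesenchymal, 28 of 28 mesothelial-like and 86 of 88 other epithelial-like cells, but in 12 of 19 endocrine-like cells (63.2%, interval 38.4% to 83.7%). Its level in mesenchyme was 319.4 and 625.6 CPM on the Nkx2.5 plates, 137.5 and 145.4 CPM on the Nkx3.2 plates and 286.4 and 297.9 CPM on the Prox1 plates. These 3 ranges did not overlap. Trunk-like cells held 294.9 and 493.6 CPM and tip-like cells 145.8 and 269.4 CPM, while endocrine-like cells held 23.95 and 35.2 CPM. Mesothelial-like cells lay between, from 51.3 CPM on plate 7A to 208.8 CPM on plate 6A.

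Notch1 (chr2:26457903-26516663, minus strand) was highest in epithelium, where its level lay under that of Notch2 outside the endocrine-like cells. Other epithelial-like cells held 151.3 and 99.7 CPM, endocrine-like cells 57.4 and 48.5 CPM, and mesenchymal cells from 12.2 to 16.2 CPM (Prox1) over 28.5 to 38.8 CPM (Nkx2.5) to 38.2 to 56.2 CPM (Nkx3.2). The 2 Cre lines overlapped, and the top Nkx3.2 plate overlapped endocrine-like cells. Counts were present in 79 of 88 other epithelial-like cells, 13 of 19 endocrine-like cells, 35.6% of mesenchymal cells and 9 of 28 mesothelial-like cells. Mesothelial-like cells had the lowest level, 7.97 CPM over all plates.

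Notch3, the mural receptor (chr17:32120820-32166852, minus strand), ran the other way. Mesenchyme held 81.8 and 87.2 CPM on the Nkx3.2 plates, 46.6 and 38.3 CPM on the Nkx2.5 plates and 40.9 and 51.96 CPM on the Prox1 plates, where the last 2 lines overlapped. Other epithelial-like cells held 19.2 and 8.44 CPM and endocrine-like cells 8.33 and 0.332 CPM. Within the mesenchyme it was highest in M-VSM-like cells, 123.9 CPM with counts in 40 of 43 cells, against 35.6 CPM in proliferating cells. In M-III-like cells it stood at 517.8 CPM in the 1 Nkx2.5 cell, 35.8 CPM in 6 Nkx3.2 cells and 28.01 CPM in 18 Prox1 cells. In GENCODE M21, Notch1, Notch2, Notch3, Dll1, Dll4 and Jag2 each overlap 1 or more small noncoding genes, none of which was matched by symbol in the count tables, and Smart-seq2 reads do not keep strand.

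Hes1, the repressor gene through which Notch acts on Neurog3 (chr16:30064384-30067796, plus strand), was present in most cells except endocrine-like and mesothelial-like cells. Other epithelial-like cells held 271.8 and 180.4 CPM with counts in 78 of 88 cells, and endocrine-like cells 0 and 7.08 CPM with counts in 1 of 19 cells (5.26%, interval 0.133% to 26.03%). Mesenchymal cells held 147.4 and 114.9 CPM (Nkx2.5), 92.6 and 67.03 CPM (Nkx3.2) and 108.1 and 128.9 CPM (Prox1). The Nkx2.5 and Prox1 ranges overlapped above the Nkx3.2 range. Mesothelial-like cells stood at 10.9 CPM, with counts in 10 of 28 cells, and plate 7A, at 62.5 CPM from 3 cells, lay above the other mesothelial plates, which held 0 to 4.85 CPM.

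Hey1 (chr3:8663359-8667256, minus strand), a related target, was highest in trunk-like cells, at 30.3 and 92.1 CPM and in 12 of 32 cells. Tip-like cells held 12.3 and 2.44 CPM and endocrine-like cells 12.3 and 3.98 CPM, and these last 2 classes overlapped. Mesenchyme had it in 11 of 413 cells. Heyl (chr4:123233556-123249875, plus strand), the target that accompanies Notch3 in mural cells, was highest in M-VSM-like cells, at 60.8 CPM and in 10 of 43 cells. It was found in 16 of 88 other epithelial-like cells (8.55 CPM) and in 0 of 19 endocrine-like cells, which allows a share of up to 15.8% on the same reading (exact upper limit 17.6%).

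Genes were then compared between classes by the ratio of summed CPM, and a gene was called when it was at least 2-fold higher or lower on every plate, among genes that reached 5 CPM in 1 of the classes. The first comparison asked how endocrine-like cells differ from the other epithelial-like cells of the same plates. Of the 10 genes, 1 was called higher and 6 lower, where 14.4% and 17.2% of 12240 genes were called in these directions. Dll4 was the gene called higher, 4.81-fold (95% counting interval 4.40 to 5.25, plates 5.06 and 5.25). Hes1 was 56.4-fold lower (plates at least 609.2 and 25.5) and Jag1 42.5-fold lower (20.3 and 104.3). Heyl was at least 44.9-fold lower over the plates together (plates at least 32.3 and 5.62). On plate 8B, Heyl in other epithelial-like cells stood at 1.87 CPM, with 98.6% of that level in 3 cells. All 3 receptors were lower, Notch2 by 8.58-fold (8.63 and 9.15), Notch3 by 3.78-fold (2.31 and 25.4) and Notch1 by 2.43-fold (2.06 and 2.64). The Notch1 and Notch3 calls were each lost in 3 of the alternatives, among them counting Neurog3-high cells as endocrine. The plate ratio nearest to 1 was 0.615 for Notch1, in that setting. For Notch3 it was 0.964, with each cell placed by its own markers. Dll1 (0.134 and 0.893), Jag2 (1.05 and 9.46) and Hey1 (0.169 and 0.628) were not called, since plate 8A and plate 8B gave ratios on different sides of the 2-fold line. The median log2 ratio of the 10 genes was -1.71, and that of all genes tested was -0.10.

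Of 46 further pathway genes, 40 were tested, and 5 were called higher and 7 lower in endocrine-like cells, shares near the 14.4% and 17.2% of all genes. Dll3, a Delta-like protein that is known to act within the cell that makes it, was higher at 78.6 against 3.01 CPM, Neurl1a, a ubiquitin ligase of ligand uptake, was 7.65-fold higher and Dtx1, a ubiquitin ligase of the receptor route, 5.34-fold higher. Maml3 and Ep300, of the nuclear activator complex, were 3.15-fold and 2.55-fold higher. Nrarp, a direct target and feedback inhibitor of Notch, was at 29.1 CPM in other epithelial-like cells and at 0 in endocrine-like cells, at least 152.6-fold lower. Rbpj, the DNA-binding partner, was 4.06-fold lower, and Dtx4, Dlk1, Adam17 and Numb were 60.3-fold, 3.93-fold, 3.64-fold and 2.40-fold lower. Maml2, the 7th gene called lower, had 1 count in these cells.

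Within the epithelium the Delta ligands were highest in cells with much Neurog3. 7 cells outside the endocrine-like cluster held at least 100 CPM of Neurog3, 6 trunk-like and 1 tip-like; no cell held 100 to 200 CPM, and 4 held 80 to 100 CPM. These 7 cells had 343.2 CPM of Dll1, with counts in 6 of 7, where the other 81 tip-like or trunk-like cells had 30.1 CPM and counts in 22 of 81. Dll4 was at 108.9 CPM and in 5 of 7, against 5.66 CPM and 8 of 81. Jag1 was all but missing, with 1 count in 1 of 7 cells, against 212.7 CPM and 76 of 81 cells. Hes1 was found in 2 of 7 cells (28.6%, interval 3.67% to 70.96%) and in 76 of 81 (93.8%, interval 86.2% to 97.97%). Only 1 of the 7 had at least 10 counts of Hes1, so their summed Hes1 rested almost wholly on 1 cell. Trunk-like cells had 7780 Hes1 counts with their Neurog3-high cells and 6909 without them.

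The receptors of the 7 cells did not move together. Notch1 stood at 125.7 CPM in these cells and at 127.3 CPM in the other 81, with intervals that overlapped. Notch2 was lower, 117.3 against 272.1 CPM, and counts were present in 5 of 7 cells against 81 of 81. Endocrine-like cells lay lower again for both receptors, with 52.3 CPM of Notch1 and 30.4 CPM of Notch2. Dll1 thus stood highest in Neurog3-high cells, at 343.2 CPM, and at 23.9 CPM in endocrine-like cells, while Dll4 stood at 108.9 and 63.9 CPM. Mfng, a fringe enzyme that changes how receptors answer Delta and Jagged ligands, was at 369.6 CPM in the 7 cells, 2.42 CPM in the other 81 and 62.95 CPM in endocrine-like cells.

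**Figure D2:**
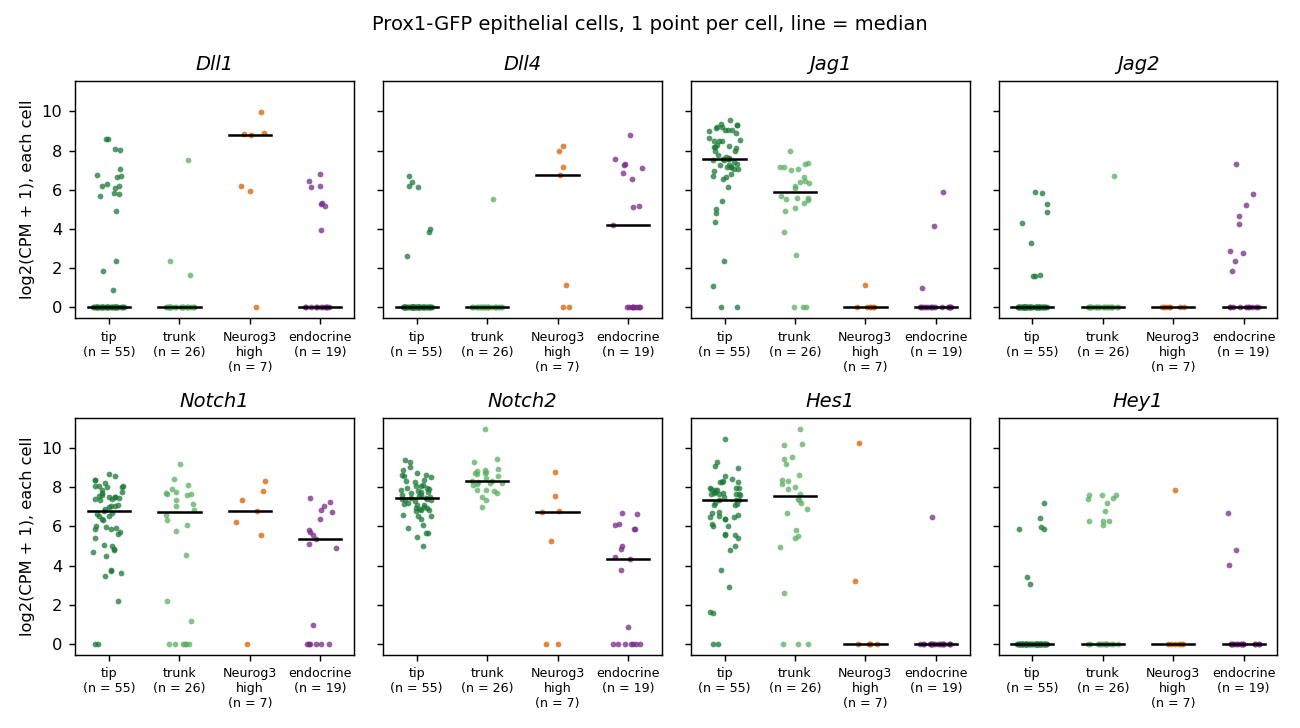
Ligands, receptors and targets in single epithelial cells of the Prox1-GFP line, as log2 of CPM plus 1, with 1 point per cell and a line at the median, for tip-like (55 cells), trunk-like (26), Neurog3-high (7) and endocrine-like cells (19). Most Neurog3-high cells sit high for Dll1 and Dll4 and at 0 for Jag1 and Hes1, and Notch2 is lower there than in trunk-like cells and lower again in endocrine-like cells.

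Delta ligand and Hes1 were then read in the same cells, counting a gene as present from 10 counts. Among endocrine-like cells 14 of 19 held Dll1 or Dll4 without Hes1, 1 held both and 4 held neither. Of the Neurog3-high cells 5 of 7 held a Delta ligand without Hes1 and 1 held both. Trunk-like cells were the reverse, with Hes1 alone in 21 of 26 and a Delta ligand alone in 1. Tip-like cells differed from both: 33 of 55 held Hes1 alone, 17 held Hes1 with a Delta ligand and 2 a Delta ligand alone.

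Tip-like cells with Dll1 also held receptors. Without the 1 Neurog3-high cell, 16 tip-like cells had at least 10 counts of Dll1, and Hes1 was found in all 16 at 125.7 CPM and in 37 of the other 39 at 212.5 CPM. Notch1 was at 178.2 CPM in the 16 and 105.4 CPM in the 39, whereas Notch2 was at 207.0 and 215.9 CPM, with medians over cells of 140.1 and 189.4 CPM. Jag1 was at 331.8 and 241.8 CPM. Neurog3 was at 10.9 and 0.544 CPM, and was present in 3 of the 16 cells.

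**Figure D3:**
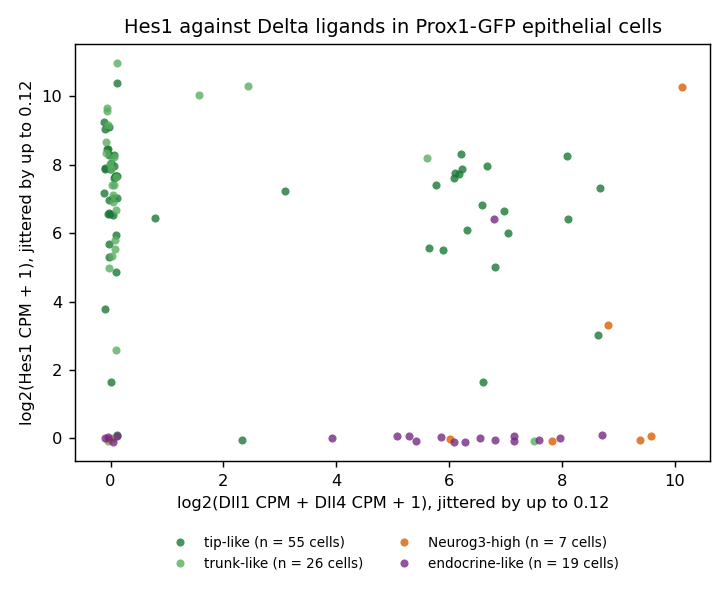
Hes1 against the sum of Dll1 and Dll4 in epithelial cells (19 endocrine-like, 7 Neurog3-high, 26 trunk-like and 55 tip-like), both as log2 of CPM plus 1 with points moved by up to 0.12 to part overlapping cells. Endocrine-like and most Neurog3-high cells lie along the bottom edge, with Delta ligand and no Hes1, trunk-like cells along the left edge, and 17 tip-like cells with at least 10 counts of both lie in the upper right.

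In endocrine-like cells the Delta ligands were mostly split between cells. With any count taken as present, 3 of 19 cells held Dll1 and Dll4, 5 held Dll1 alone, 7 Dll4 alone and 4 neither. In Neurog3-high cells 5 of 7 held both. Adding Jag2, 17 of 19 endocrine-like cells held at least 1 of the 3 ligands. Of the 9 endocrine-like cells with Jag2, 4 also held C1qa, a complement gene that was present in 7 of the 19; the summed level of the leukocyte markers Ptprc, Cd74, Tyrobp and Fcer1g in this class was 0.571 CPM.

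The trunk and the tips of the epithelium were compared on the same 2 plates, and 3 of 9 genes tested were called higher in trunk-like cells and 1 lower, with 6.94% and 4.33% of 11549 genes called. Jag1 was 4.27-fold lower in the trunk (plates 3.72 and 4.62). Hey1 was 7.25-fold higher (2.47 and 37.8), Dll4 3.61-fold higher (2.25 and 7.73) and Notch3 2.46-fold higher (2.14 and 2.28). Hes1, at 319.7 CPM in trunk-like cells and 1.73-fold over tip-like cells, and Notch2, at 361.7 against 211.6 CPM, were not called, and Notch1 had nearly the same level in both, 128.3 and 126.6 CPM. The Dll4 difference rested on the 6 Neurog3-high cells of the trunk-like cluster: with Neurog3-high cells counted as endocrine, the ratio of trunk to tip was 0.224. Dll1 in trunk-like cells was likewise 67.4 CPM with these 6 cells and 7.07 CPM without them, while Hey1 was 51.1 and 52.3 CPM. Notch3 lay close to the line, and its lowest plate ratio was 1.98 after TMM scaling.

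Among the further pathway genes, 4 were higher and 1 lower in trunk-like cells of 40 tested, with the shares of all genes given above. Dll3 was 63.8-fold higher (8.92 against 0.140 CPM), Neurl1b, a ubiquitin ligase of ligand uptake, 60.5-fold, Mfng 56.7-fold and Numbl, a relative of the Notch inhibitor Numb, 17.5-fold. These levels too sat mostly in the 6 Neurog3-high cells: in the other 26 trunk-like cells Dll3 was at 0.102 CPM (2 counts), Neurl1b at 0.310 CPM, Mfng at 4.58 CPM and Numbl at 6.66 CPM, from 12.2, 87.2 and 30.2 CPM for the last 3 in all trunk-like cells. Neurl1a was lower, with 3 counts in trunk-like cells (0.125 against 6.45 CPM). Nrarp was found in tip-like (18.9 CPM) and trunk-like cells (49.9 CPM) and was at 0 in endocrine-like, mesothelial-like and all mesenchymal classes.

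Against the mesenchyme of the same Prox1 plates, epithelial-like cells of all 3 classes differed in 5 of 10 genes, 4 higher and 1 lower, where 14.3% and 10.3% of 12204 genes were called. Notch1 was 7.82-fold higher in epithelium (plates 5.50 and 11.3), Dll1 24.7-fold higher at 48.1 against 1.95 CPM, and Dll4 11.1-fold higher at 22.1 against 2.001 CPM. Jag2 was at 5.79 CPM and at 0 in the 77 mesenchymal cells, at least 113.8-fold higher. Notch3 was 3.85-fold lower (2.32 and 7.67). Jag1, at 163.4 against 297.2 CPM, Notch2, at 220.4 against 293.2 CPM, and Hes1, at 189.7 against 120.5 CPM, were held on both sides and were not called. The medians were 1.04 for the 10 genes and 0.02 for all genes on the log2 scale.

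Of the 40 further pathway genes tested, 5 were higher and 2 lower in epithelium, shares no larger than the 14.3% and 10.3% of all genes. Nrarp was at least 471.4-fold higher, Dll3 54.9-fold, Mfng 32.1-fold, Dtx4 12.3-fold and Hes6, a Hes relative known to oppose Hes1, 3.77-fold. Maml2, a coactivator of the nuclear complex, was 8.69-fold lower and Numbl 1.88-fold lower over both plates (2.09 and 2.26 within them).

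Mesothelial-like cells held less Jag1, Notch1 and Notch3 than mesenchymal cells. Compared with mesenchymal cells of the same plates, on the 3 plates with at least 3 mesothelial-like cells (26 against 255 cells), 3 of 7 genes tested were lower and 0 higher, with 8.0% and 4.12% of 11783 genes called. As these are calls by ratio, no p-value stands behind the 0. Jag1 was 14.6-fold lower, at 11.3 against 164.03 CPM, Notch1 4.87-fold lower, at 8.79 against 42.8 CPM, and Notch3 3.16-fold lower, at 22.1 against 70.1 CPM. Hes1, at 11.5 against 106.6 CPM, was not called because plate 7A gave a ratio of 0.675. Notch2, at 109.4 against 206.9 CPM, was not called. Of these 26 cells, 20 came from plate 7B and 3 from each of the other plates. When each cell was placed by its own markers, without clusters, 46 cells were mesothelial-like in place of 28 and 0 genes were called. Of the further genes, 39 were tested, and Maml2 (4.01-fold) and Spen (2.57-fold), both nuclear partners of RBPJ, were lower. The median log2 ratio of these 39 was 0.08, against -0.01 for all genes, so the further genes as a list were not lower.

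The mesenchyme of the 2 Cre lines was compared over all 4 pairs of plates, and 2 of 6 genes tested were called higher in the Nkx2.5 line, Notch2 and Jag1, where 1.52% of 11218 genes were called higher and 2.38% lower, 3.9% in all. Notch2 was 3.32-fold higher, at 467.0 against 140.6 CPM, with 2.20 to 4.55 over the pairs. Jag1 was 2.96-fold higher, at 317.2 against 107.1 CPM, with 2.17 to 4.35. Hes1 was 1.59-fold higher (1.24 to 2.20) and Notch3 1.97-fold lower (1.76 to 2.27), and neither was called. Notch1, at 33.8 against 45.2 CPM, and Heyl, at 5.43 against 15.3 CPM, were not called either. Dlk1, a Notch ligand relative without the receptor-activating domain, was the 1 further gene called among 37, 2.15-fold lower (2.13 to 2.17).

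Both differences were present in each of the 5 mesenchymal clusters with at least 5 cells of both lines. Notch2 was 1.79-fold to 4.09-fold higher in the Nkx2.5 line and Jag1 2.24-fold to 3.01-fold higher. Notch3 ran from 0.345 to 0.640 in these clusters, while Hes1 ran from 0.871 to 2.93 and so took either side of 1. With cells in G1 alone, the lowest pair ratio was 1.9015 for Notch2 and 1.77 for Jag1 and neither was called. Jag1 also missed the line without mesenchymal cluster 2 (lowest pair 1.93) and without the proliferating and M-VSM-like clusters (1.91).

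The lines differed in more than the driver. 4 Y-linked genes summed to 336.6 and 302.6 CPM in mesenchymal cells of the Nkx2.5 plates, 3.85 and 4.29 CPM on the Nkx3.2 plates and 4.99 and 4.62 CPM on the Prox1 plates. Mesenchymal cluster 2, of which 62 of 74 cells were Nkx2.5, had the Y-linked genes Ddx3y, Uty and Kdm5d among its leading genes. Sex and Cre line therefore cannot be told apart, and the number of genes detected also differed, with medians of 5745 (Nkx2.5) and 7221 (Nkx3.2). The Prox1 mesenchyme, with a Y-linked level like that of the Nkx3.2 line, held 293.2 CPM of Notch2 and 297.2 CPM of Jag1. Its libraries were numbered apart from those of the Cre lines, so a difference of batch cannot be told apart from one of line there.

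**Figure D4:**
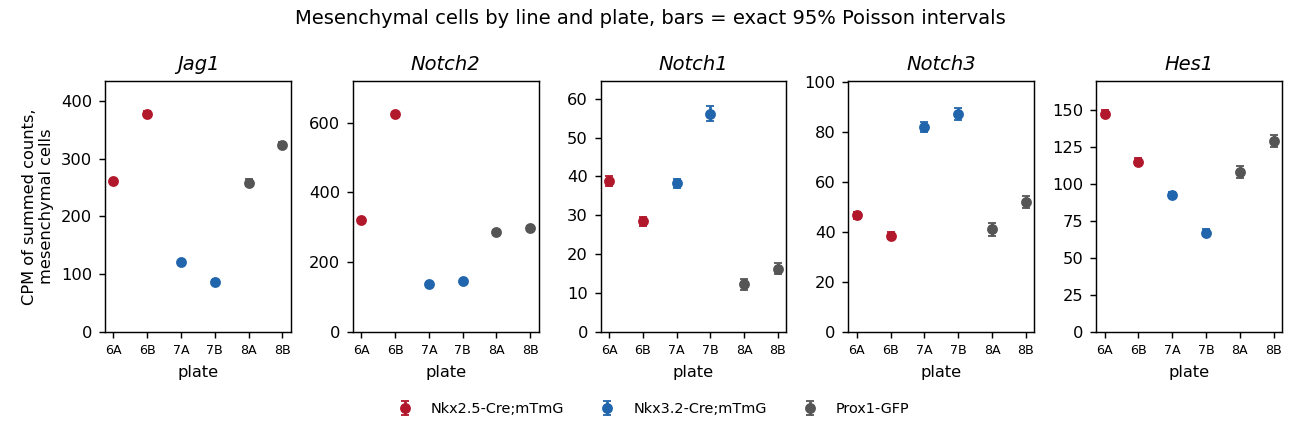
Jag1, Notch2, Notch1, Notch3 and Hes1 in mesenchymal cells of each plate, as CPM of summed counts with exact 95% Poisson intervals, coloured by line. For Jag1 and Notch2 the Nkx3.2 plates (86.9 to 119.97 and 137.5 to 145.4 CPM) lie below the plates of both other lines, and for Notch3 (81.8 and 87.2 CPM) above them.

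M-VSM-like cells were compared with the other mesenchymal cells of the Nkx3.2 line, which held 35 of the 43. Heyl was the 1 gene called of 6 tested, 9.50-fold higher (plates 6.63 and 11.4), where 3.62% of 11336 genes were called higher and 3.76% lower, 7.37% in all. It stood at 73.8 and 28.3 CPM on plates 7A and 7B, in 8 of the 35 cells, and at 135.3 CPM in the 6 M-VSM-like cells of the Prox1 line. Notch3 was higher on both plates, at 118.4 against 75.1 CPM, but by 1.29-fold and 1.81-fold, and was not called. Hes1 was at 53.9 against 89.9 CPM. Hey2 stood at 39.7 CPM in M-VSM-like cells of all lines, with counts in 13 of 43 cells, against 6.37 to 16.5 CPM in the other mesenchymal clusters and 0 in the 3 epithelial classes. It was not called, since within the Nkx3.2 line the plate ratios were 0.442 and 5.68, on opposite sides of 1. Hes5, whose promoter above holds the same pair of cores as that of Hey2, was at 0 in every class. Of 38 further genes tested, Dtx4 (33.1-fold, 9.09 against 0.275 CPM) and Neurl1a (3.71-fold) were higher.

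Summed per kb of transcript, the balance of ligand to receptor differed by class. Endocrine-like cells held 27.6 CPM per kb of the 4 ligands and 8.87 CPM per kb of the 3 receptors, a ratio of 3.11, and tip-like cells 62.4 and 34.7, a ratio of 1.80. Trunk-like cells held 37.4 and 50.9 CPM per kb (0.735), mesenchymal cells 41.5 and 40.8 (1.02) and mesothelial-like cells 3.91 and 14.5 (0.270). The trunk-like sums include the Neurog3-high cells, which held most of the Dll1 and Dll4 of that class. A ratio without them was not computed. Without them, trunk-like Dll1 fell from 67.4 to 7.07 CPM while Notch2 rose from 361.7 to 419.1 CPM. With these cells left in the trunk-like class, endocrine-like cells had the highest ligand-to-receptor ratio of the 5 classes and the lowest receptor sum. On the same count mesothelial-like cells had the lowest ratio. The Neurog3-high cells were not placed in this order as a class of their own.

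What made up the ligand sum differed as well. Jag1 made up 99.1% of it in mesenchyme, 97.1% in mesothelial-like cells and 75.002% in tip-like cells. Dll1 made up 50.3% in trunk-like cells and Dll4 61.8% in endocrine-like cells. The trunk-like share of Dll1 rested on the Neurog3-high cells of that cluster. Without them trunk-like Dll1 fell from 67.4 to 7.07 CPM and Dll4 from 25.9 to 1.63 CPM, while Jag1 rose from 61.6 to 76.2 CPM. On the receptor side Notch2 led in tip-like (58.1%), trunk-like (67.7%), mesothelial-like (76.9%) and mesenchymal cells (72.6%), and Notch1 in endocrine-like cells (62.1%). In M-VSM-like cells Notch2 (43.9%) and Notch3 (40.9%) took nearly equal parts.

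**Figure D5:**
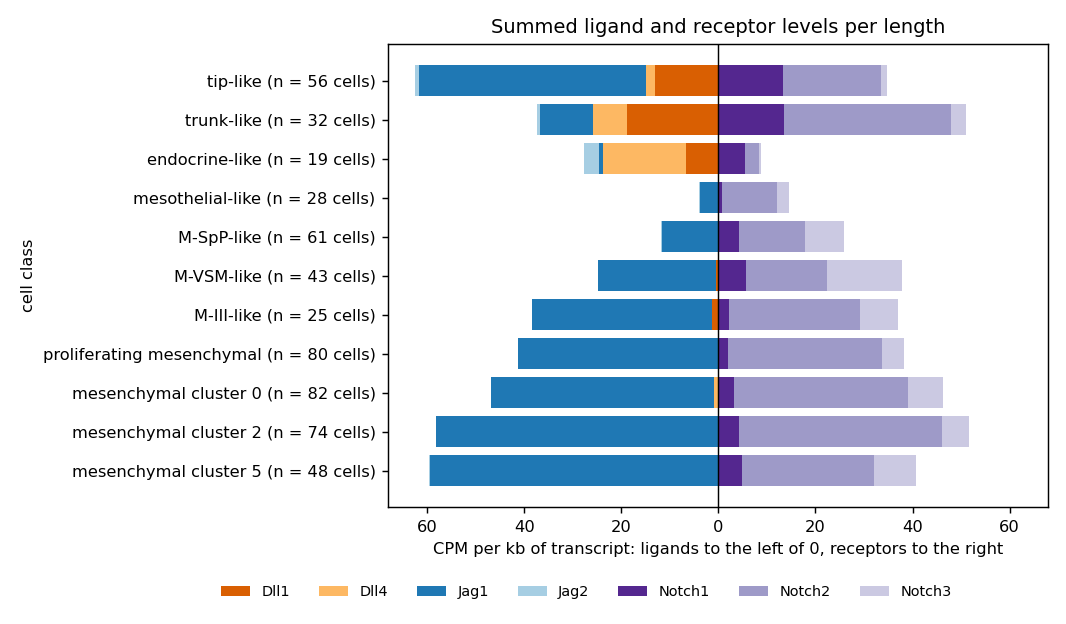
Summed ligands (left of 0) and receptors (right of 0) in each cell class, in CPM per kb of transcript, coloured by gene. Endocrine-like cells have the shortest receptor bar (8.87 CPM per kb) and a ligand bar mostly of Dll4, and the mesenchymal ligand bars are almost wholly Jag1.

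Most cells held both sides of the pathway. At least 1 ligand and at least 1 receptor were found in 359 of 413 mesenchymal cells (86.9%, interval 83.3% to 90.02%), 81 of 88 other epithelial-like cells (92.05%, interval 84.3% to 96.7%) and 15 of 19 endocrine-like cells (78.95%, interval 54.4% to 93.95%). The endocrine-like interval overlapped those of both other classes. In mesothelial-like cells 13 of 28 held both (46.4%, interval 27.5% to 66.1%), and the other 15 held receptor alone. Ligand without receptor was found in 3 of 19 endocrine-like cells, 1 of 88 other epithelial-like cells and in no mesenchymal or mesothelial-like cell.

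The balance also differed between the lines in mesenchyme, where line cannot be told apart from sex or batch. Nkx2.5 mesenchyme held 56.5 CPM per kb of ligand and 53.4 of receptor, Nkx3.2 mesenchyme 19.6 and 28.6, and Prox1 mesenchyme 54.03 and 35.4. In the Nkx3.2 line Notch3 made up 36.6% of receptor and Notch2 46.8%, and in the Nkx2.5 line 9.96% and 83.4%.

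Genes with the most similar pattern were taken over 34 sums of class and plate, which share cells' libraries and plates and are not independent, among 12574 genes, by Pearson's r of log2(CPM + 1). Nearest to Jag1 were Sox4 (0.87), Lrp4 (0.87) and Peg12 (0.84), nearest to Notch2 were Tcf7l1 (0.90), Ptp4a2 (0.88) and Zscan26 (0.87), and nearest to Hes1 were Tcf7l1 (0.82), Cyba (0.81) and Slc38a4 (0.78). Dll1 lay nearest to Rassf6 (0.92), Cldn6 (0.91) and 5330417C22Rik (0.91), Dll4 to Sigirr (0.88), Rfx6 (0.86) and Kcnk16 (0.85), and Jag2 to C1qa (0.92), Pcolce2 (0.86) and Lgals2 (0.85). Notch3 lay nearest to Igf2 (0.87), Ccnd3 (0.86) and Ptk7 (0.85), Notch1 to Acsl5 (0.73), Hey1 to Nap1l2 (0.79) and Heyl to Nell2 (0.60). Among the 10 genes themselves the closest pairs were Jag1 with Notch2 (0.80), Dll1 with Dll4 (0.77) and Hes1 with Notch2 (0.72).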

How the data were processed

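Per the labels and the study's methods, the authors trimmed reads (Trim Galore 0.6.5, per the submitters' processing notes), quantified them with kallisto 0.46.1 on GRCm38 and summed transcripts to genes with tximport 1.18.0. The tables the authors deposited hold estimated counts, gene by cell, not normalized. No molecular identifiers were used, so PCR copies are counted. As the counts are estimates, 36.0% of values above 0 are not whole. Estimated counts were rounded when summed.

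Cells were kept from 1000 genes and 100000 counts upward, with up to 30% of counts mitochondrial, and clustered with Seurat 5.3.0 (2000 variable genes, 20 components, resolution 1.9, the Notch list left out). No doublet caller was run. 1 cell with at least 10 counts of Ptprc and Tyrobp was set aside. Summed counts were scaled to CPM with Python 3.11.15. A gene was called at a ratio of 2 or 0.5 on every plate, a sum of 0 being set to 3 counts. All 10 genes are described, and up to 8 called genes of the wider list (46 further genes) are named per comparison. The members, lists and tests were chosen with earlier results of these data known. TMM (edgeR 4.0.16) and size factors (DESeq2 1.42.0) served only as alternative scalings. The calling was also run on simulated counts, which held no difference between plates and so could not test the demand for agreement between plates. The paper's other assays were not analysed here.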

Additional observations from a re-analysis of the deposited data

How the results depend on the processing

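No paired analysis was possible because no test was made: ratios within 1 line were read plate by plate, and between lines the plate letters tie no cells together. The number of the 10 genes called (7, 4, 5, 3, 2 and 1 in the comparisons in the order of the text) stayed within 1.5 times under the alternatives run, with these exceptions. Placing each cell by its markers without clusters left 0 calls for mesothelial-like cells, and G1 cells alone left 0 between the Cre lines. Leaving out the proliferating and M-VSM-like clusters, chosen after seeing the data, left 1 there. With no filter on low genes, 3 genes were called in M-VSM-like cells. Leaving out plates A or B in turn gave 8 to 8 calls for endocrine-like cells, 6 to 7 for epithelium against mesenchyme, 3 to 5 for mesothelial-like cells, 3 to 3 between Cre lines, 5 to 5 for trunk against tip and 2 to 2 for M-VSM-like cells; fewer plates make the rule easier to meet. Dll4 in trunk against tip turned from 3.61 to 0.944 with classes per cell and to 0.224 with Neurog3-high cells counted as endocrine. In the same 2 settings, under both other scalings, with mean single-cell CPM and after thinning Notch3 lost its trunk call. Notch1 lost its endocrine call with DESeq2 size factors (highest plate ratio 0.509), without cells with markers of a second class (0.516) and with Neurog3-high cells counted as endocrine (0.615), Heyl its endocrine call after thinning and without plates A (under 5 CPM there, so not tested), and Jag2 its epithelial call after thinning and without plates B. Notch3 lost its endocrine call with classes per cell (highest plate ratio 0.964), after thinning (0.694) and with Neurog3-high cells counted as endocrine. The class and line with the highest level was the same for 9 or 10 of the 10 genes under the 7 alternatives run. With 1 sample per line, spread between embryos is unknown, and classes of 19 or 28 cells leave wide intervals on shares.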
